A study of Homo sapiens with 6 samples.

Results

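Messenger RNA counts of the zinc finger genes of chromosome 7 were compared between RN7SK-knockout and control libraries of A549, a human cell line derived from a lung adenocarcinoma. The genes were taken from a fixed list of 32 symbols, chosen with earlier results of these data known. Of these, 31 were among the 16779 genes of the count tables, and 28 passed the low-count filter and were among the 12929 genes tested. ZNF804B was not analysed here. ZNF479, ZNF735 and ZNF117 were listed but not tested: ZNF479 had 0 counts in all 6 libraries, ZNF735 had 1 count, in control replicate 3, and ZNF117 had 1 count, in knockout replicate 1. The labels give 3 libraries with the genotype RN7SK knockout and 3 wild-type control libraries, all of the line A549, with no other treatment. They do not say whether the knockout is 1 clone, nor whether the replicates were separate cultures, so the p-values measure the spread between these libraries, which may be technical.

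Proteins with C2H2 zinc fingers bind DNA through repeated finger units, each held in shape by a zinc ion. Many of those named ZNF also carry a KRAB domain at the amino terminus, which binds the corepressor TRIM28; TRIM28 in turn brings in the histone methyltransferase SETDB1 and HP1 proteins, and the bound sites, often copies of transposable elements, are packed into silent chromatin. Such genes arose by repeated duplication and lie in clusters, the largest of them on chromosome 19 and a smaller set on chromosome 7, around the centromere and near the end of the long arm. RN7SK encodes the small nuclear RNA 7SK, which keeps part of the cell's P-TEFb, a kinase needed for transcript elongation, inactive. In bulk RNA, fewer cells of a type and less RNA per cell cannot be told apart.

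Total counts were 16018260 to 18488790 in the knockout libraries and 18612303 to 19357144 in the control libraries, and the tables list no row for RN7SK, so the target itself gave no check of the labels. CDKN2A, which A549 cells are known to lack, had 0, 1 and 2 counts in knockout replicates 1 to 3, against 963, 1005 and 923 in control replicates 1 to 3, and CDKN2B, which they also lack, had 0 to 1 against 216 to 241. The control libraries thus went against their label, and as this holds for all 3 of them no comparison could be made without them. Groups are called by their labels throughout, and a difference between lines cannot be told apart from an effect of the knockout. Of 5 epithelial markers 3 were tested (KRT8, KRT18 and CDH1) and all 3 were higher in the knockout libraries, with a summed level of 4680 to 4770 counts per library size (CPM) against 2790 to 2970 CPM in the control libraries, while EPCAM and KRT19 were near 0 in both. Of 5 lung epithelial markers NAPSA alone was tested and was higher, at 1.4, 1.2 and 1.11 CPM in the knockout and 0.702, 0.576 and 0.836 CPM in the control libraries. Summed over the 5, the level was 1.73 to 2.1 CPM in the knockout libraries and 0.576 to 0.889 CPM in the control libraries. NKX2-1 had 11, 5 and 9 counts in the knockout and 1, 0 and 0 counts in the control libraries, SFTPC was near 0, and SFTPB and SFTPA1 were at 0 throughout. Of 6 endothelial markers 4 were tested and all 4 were lower in the knockout libraries, with a summed level of 3.66 to 4.3 CPM against 162 to 175 CPM in the control libraries, while PECAM1 and VWF were near 0 in both. Of 5 haematopoietic markers 2 were tested and both were higher (summed 8.18 to 9.5 CPM in the knockout libraries, 2.32 to 2.46 CPM in the control libraries), with PTPRC and HBB at 0 in the control libraries. Of 6 fibroblast markers 4 were tested, of which 3 were higher and 1 lower (summed 116 to 123 CPM in the knockout libraries, 73.2 to 77.6 CPM in the control libraries), with COL1A2 at 0 in the control libraries. Over all genes tested, 42.0% were higher and 43.0% lower. The part of these marker differences in the results below was not tested.

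Most zinc finger genes of chromosome 7 had lower counts in the knockout libraries. Of the 28 tested genes, 20 fell, 4 rose and 4 did not pass (edgeR quasi-likelihood test, Benjamini-Hochberg adjusted p under 0.05). Over all genes tested, 85.0% passed, 42.0% higher and 43.0% lower, so the number that passed was close to the background while the share that fell, 71.4%, was above it and the share that rose, 14.3%, below it. On the authors' FPKM, which take gene length in, 14 of the 28 fell and 8 rose (limma on log2(FPKM + 0.1)), against 39.3% lower and 45.6% higher over all genes. The median log2 fold change (knockout over control) was -0.36 over the 28 genes and -0.01 over all genes tested. Changes of at least 2-fold were found in 4 of the 28 genes that rose and 5 that fell, against 19.5% and 14.1% (33.6% in all) of all genes tested. Changes of this size were thus about as common on the list as over all genes. With each library left out in turn, the log2 fold change was 0.84 to 1.27 for ZNF853 and -1.36 to -0.92 for ZNF680. Whether these genes reached 2-fold therefore depended on the libraries used. Summed over the 31 listed genes, the level was 512 CPM in each knockout library and 704, 676 and 703 CPM in control replicates 1 to 3. In 22 of the 28 genes the groups did not overlap, against 85.6% of all genes tested: 4 lay wholly higher in the knockout libraries and 18 wholly lower, against 42.4% and 43.2%.

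**Figure D1:**
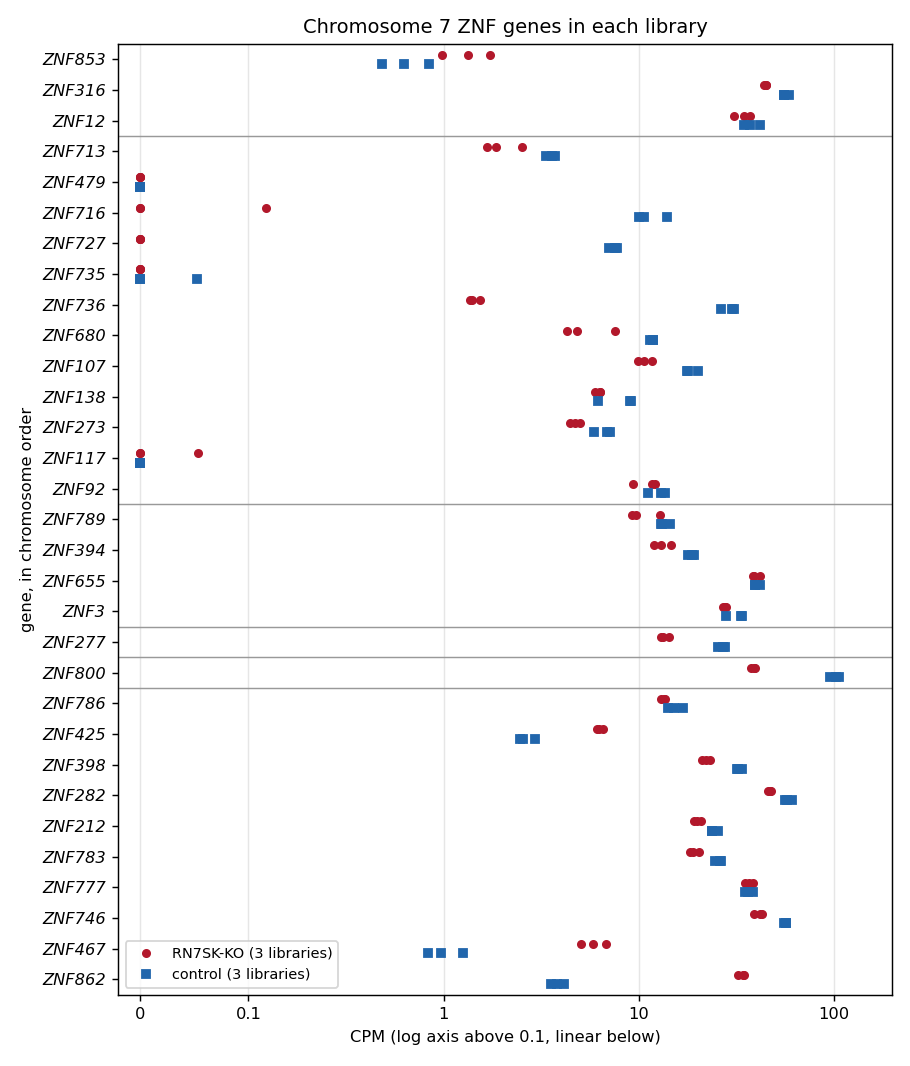
Level of each of the 31 listed genes (rows, in chromosome order, grey lines between locus groups) in CPM, counts scaled to library size, on an axis that is logarithmic above 0.1 CPM and linear below. Each red circle is a knockout library and each blue square a control library. ZNF716, ZNF727 and ZNF736 stand at 0 to 1.54 CPM in the knockout libraries and at 7.07 to 30.8 CPM in the control libraries, and ZNF862 and ZNF467 show the opposite order.

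Around the centromere, 12 of the listed genes lie between ZNF713 and ZNF92 (chromosome 7, 55887456 to 65401136, GRCh38), and here 3 genes were close to silent or much reduced in the knockout libraries. Of the 9 tested, 8 fell, 0 rose and ZNF92 did not pass, with a median log2 fold change of -0.81. The share that fell was 88.9%, against 43.0% lower, 42.0% higher and 85.0% in either direction over all genes tested. The number that passed was thus near the background. The summed level of this group was 39.3 to 45.4 CPM in the knockout libraries and 107 to 113 CPM in the control libraries. Many genes of this group encode KRAB zinc finger proteins from families that grew in primates, and little is known of their targets. ZNF716 (57450177 at its start) had 0, 0 and 2 counts in knockout replicates 1 to 3, against 196, 193 and 266 counts in control replicates 1 to 3. The groups were far apart, with a ratio of control to knockout counts of 298 (95% exact counting interval 82.1 to 2460, counting error only). ZNF727 (start 64045434) had 0 counts in each knockout library, against 143, 135 and 145 counts in the control libraries. By the 95% exact counting interval (counting error only), ZNF727 was at least 104-fold lower in the knockout group. Set against a floor of 3 counts over that group, the ratio of control to knockout was 128. ZNF736 (start 64313961) had 1.4, 1.37 and 1.54 CPM in the knockout libraries, against 30.8, 30.1 and 26.5 CPM in the control libraries. It was lower by a factor of 20.2 and still detected in every knockout library, with 23 to 26 counts (edgeR log2 fold change -4.34 ± 0.132 SE, adjusted p = 3.09e-25). For ZNF716 and ZNF727 the edgeR adjusted p was 3.62e-19 and 1.54e-18, and the fitted log2 fold changes of -7.98 and -10.07 depend on the few or absent knockout counts. Without knockout replicate 3, which holds the only 2 counts of ZNF716, its fitted value was -10.73. Of the 50-base stretches of their transcripts (GENCODE 29), 6.2% for ZNF716, 13.7% for ZNF727 and 1.5% for ZNF736 also occur in other genes, so a part of their counts could depend on how shared reads were assigned. For ZNF727 only 1594 stretches were searched, while the gene length behind its control FPKM was 10718 bases, so most of that length was not checked.

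The promoters of these 3 genes are printed, with that of ZNF862, the gene that rose most in the fit on counts, because these genes had the largest differences and their promoters can be compared letter by letter. Each is the 250 bases before the RefSeq transcription start (GRCh38.p14), read 5′ to 3′ on the gene's strand, in lower case with CpG dinucleotides in capitals.
ZNF716, chr7:57449927-57450176, plus strand: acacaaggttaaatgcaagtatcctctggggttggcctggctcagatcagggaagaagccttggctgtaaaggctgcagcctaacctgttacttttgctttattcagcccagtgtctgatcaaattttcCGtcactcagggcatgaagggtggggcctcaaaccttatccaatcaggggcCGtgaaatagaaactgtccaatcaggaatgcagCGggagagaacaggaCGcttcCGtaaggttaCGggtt
ZNF727, chr7:64045184-64045433, plus strand: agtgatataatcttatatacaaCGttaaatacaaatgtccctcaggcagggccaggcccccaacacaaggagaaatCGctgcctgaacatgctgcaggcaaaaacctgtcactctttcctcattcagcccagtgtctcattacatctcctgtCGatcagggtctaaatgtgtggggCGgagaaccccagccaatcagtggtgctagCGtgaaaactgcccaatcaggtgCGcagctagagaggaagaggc
ZNF736, chr7:64313711-64313960, plus strand: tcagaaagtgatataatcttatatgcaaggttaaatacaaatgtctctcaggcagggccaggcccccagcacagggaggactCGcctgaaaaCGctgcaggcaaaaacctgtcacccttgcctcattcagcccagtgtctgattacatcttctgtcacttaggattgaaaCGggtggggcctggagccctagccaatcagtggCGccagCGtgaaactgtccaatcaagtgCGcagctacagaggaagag
ZNF862, chr7:149838125-149838374, plus strand: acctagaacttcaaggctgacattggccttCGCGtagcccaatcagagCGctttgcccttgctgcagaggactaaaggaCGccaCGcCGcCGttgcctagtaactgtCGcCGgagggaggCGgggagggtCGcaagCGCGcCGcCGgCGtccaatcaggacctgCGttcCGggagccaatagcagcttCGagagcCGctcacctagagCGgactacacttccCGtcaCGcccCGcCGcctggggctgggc
The 250 bases hold 6 CpG in each of ZNF716, ZNF727 and ZNF736, and 25 in ZNF862. The windows of ZNF727 and ZNF736, taken with the 50 bases after the start, aligned at 84% identity, the highest of 377 pairs of listed genes whose windows do not overlap, where the median was 46%. The window of ZNF716 aligned at 60.2% to that of ZNF736 and at 57.4% to that of ZNF727. It was more alike to the windows of ZNF92 (73.5%), ZNF107 (72.4%), ZNF138 (69.8%) and ZNF680 (69.4%). The log2 fold changes of these 4 genes were -0.18, -0.79, -0.38 and -1.09 in that order, so they did not share its large difference. Over the same windows, the ratio of observed to expected CpG was 0.36 for ZNF716, 0.41 for ZNF727 and 0.42 for ZNF736, and 17.5% of the 13419 promoters of genes in the tables had a lower value than ZNF716 and 19.5% a lower value than ZNF727. ZNF107, at 0.32, had a promoter still poorer in CpG and did not share the large difference: it had 9.95, 10.6 and 11.7 CPM in the knockout libraries and 17.9, 20.1 and 17.8 CPM in the control libraries. Its log2 fold change was -0.79 ± 0.0971 SE (edgeR adjusted p = 4.47e-09). The 9 tested genes around the centromere had ratios of 0.32 to 0.86 with a median of 0.5, and the 16 other tested genes with a promoter in the table had 0.69 to 1.0 with a median of 0.85.

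**Figure D2:**
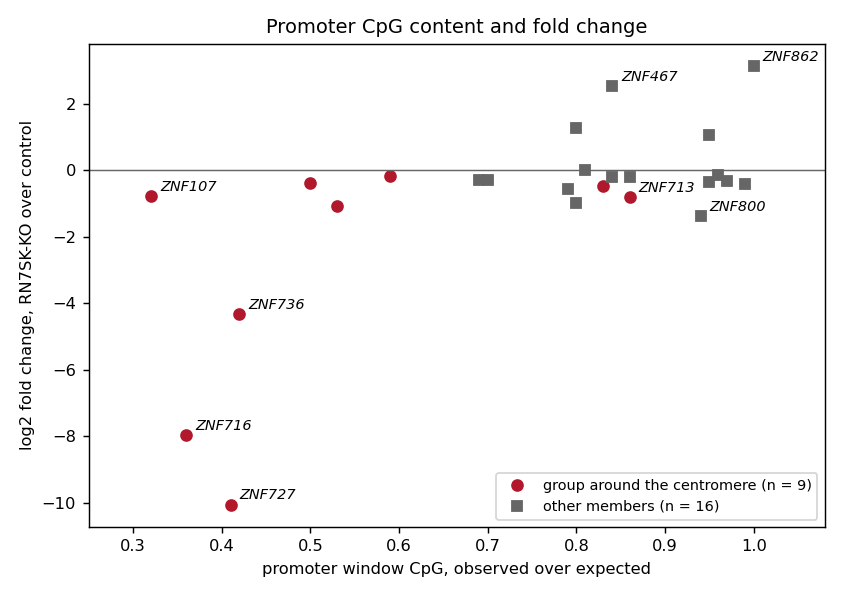
Observed over expected CpG of the 300-base promoter window (horizontal axis) and log2 fold change, knockout over control (vertical axis), of the 25 tested genes with a promoter in the RefSeq table. Red circles are the 9 genes around the centromere and grey squares the 16 other genes. ZNF716, ZNF727 and ZNF736 lie at 0.36 to 0.42 on the horizontal axis, beside ZNF107 at 0.32, whose log2 fold change was -0.79.

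The rest of the group changed by less. ZNF680 had 4.3, 4.84 and 7.57 CPM in the knockout libraries and 11.9, 11.8 and 11.4 CPM in the control libraries, with replicate 3 the highest of the knockout libraries and still below every control library (log2 fold change -1.09 ± 0.145 SE, edgeR adjusted p = 6.95e-08). ZNF713 averaged 2.02 ± 0.452 CPM in the knockout libraries and 3.56 ± 0.196 CPM in the control libraries (SD, n = 3 each), and ZNF273 averaged 4.73 ± 0.295 and 6.65 ± 0.645 CPM in the same order. Both fell without overlap, by log2 fold changes of -0.81 and -0.49. ZNF138, at 6.22 ± 0.216 CPM in the knockout and 8.12 ± 1.69 CPM in the control libraries, overlapped in that control replicate 3 had 6.17 CPM, and its call was lost in 4 of 16 alternative settings. ZNF92, the outermost gene, had 11.1 ± 1.52 CPM in the knockout and 12.6 ± 1.31 CPM in the control libraries and did not pass (edgeR adjusted p = 0.128), though it did when control replicate 2 was left out (adjusted p = 0.0217).

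Other genes within the same stretch did not share the large drop of ZNF716, ZNF727 and ZNF736, apart from a gene at about 1 CPM. Of the 9 others tested between ZNF713 and ZNF92, 2 rose, 6 fell and 1 did not pass, against 42.0% higher and 43.0% lower over all genes tested. All but LOC107986800 and ERV3-1 lie between MRPS17 and CHCHD2 (55951877 to 56106476). None lies between LOC107986800 (end 56380825) and ERV3-1 (start 64990356), where ZNF716, ZNF727 and ZNF736 are found. Whether close neighbours of these genes shared the drop could therefore not be seen. PSPH, the phosphatase of serine synthesis, averaged 110 ± 3.63 CPM in the knockout and 30.7 ± 1.6 CPM in the control libraries. CCT6A, a chaperonin subunit, averaged 402 ± 13.6 CPM in the knockout and 538 ± 20.6 CPM in the control libraries. ERV3-1, which overlaps ZNF117, had 3.59 ± 0.308 and 2.82 ± 0.393 CPM in knockout and control libraries and did not pass (edgeR adjusted p = 0.0865). The exception was LOC107986800, between CHCHD2 and ZNF479, at 0.0999 ± 0.129 CPM in the knockout and 1.44 ± 0.335 CPM in the control libraries.

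Near the end of the long arm, 10 listed genes lie between ZNF786 and ZNF862 (149069641 to 149867479), and they moved in both directions. All 10 were tested: 3 rose (30%), 6 fell (60%) and 1 did not pass. Over all genes tested, 42.0% were higher and 43.0% lower (85.0% in all), so the number that passed was near the background. The summed level of the 10 genes was 242 to 249 CPM in the knockout and 252 to 265 CPM in the control libraries. ZNF862, whose protein has a region related to hAT family transposases, had 32.4, 34.1 and 34.6 CPM in the knockout libraries, against 4.16, 3.56 and 3.82 CPM in the control libraries. Every knockout library was far above every control library, an 8.75-fold rise (log2 fold change 3.13 ± 0.0999 SE, edgeR adjusted p = 1.38e-24). An antisense gene covers part of the exons, 26.3% of its annotated exon bases in GENCODE 29 being shared, and as the strand setting of the counting is not given its reads cannot be told apart from those of ZNF862. ZNF467, whose mouse ortholog is known for steering progenitors between bone and fat cells, had 5.86, 5.08 and 6.77 CPM in the knockout libraries and 0.972, 1.26 and 0.836 CPM in the control libraries. This was a 5.74-fold rise (log2 fold change 2.52 ± 0.215 SE, edgeR adjusted p = 9.02e-13). With the recovered gene lengths as an offset, its log2 fold change was 3.11, beside 3.1 for ZNF862.

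ZNF425 and ZNF398 start close together on opposite strands, so that 183 bases of their 300-base promoter windows are the same, and they moved in opposite directions. ZNF425 had 6.29, 6.09 and 6.58 CPM in the knockout libraries and 2.48, 2.57 and 2.93 CPM in the control libraries (log2 fold change 1.25 ± 0.163 SE, edgeR adjusted p = 1.87e-08). ZNF398 had 23.3, 22.2 and 21.1 CPM in the knockout libraries and 32.5, 31.9 and 33.7 CPM in the control libraries (log2 fold change -0.56 ± 0.0717 SE, edgeR adjusted p = 1.2e-08). Neither overlapped between the groups. The ratio of ZNF425 to ZNF398 within a library was 0.27, 0.275 and 0.312 in the knockout and 0.0764, 0.0803 and 0.0868 in the control libraries. The recovered gene lengths of both agreed between the groups within 1%, and their directions were the same with the lengths as an offset.

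The other genes near the end of the long arm differed by small amounts. ZNF746, known as PARIS, a repressor that the ubiquitin ligase parkin marks for breakdown, averaged 41.5 ± 2.04 CPM in the knockout and 56.4 ± 0.636 CPM in the control libraries (log2 fold change -0.44). ZNF783 averaged 19.2 ± 1.09 CPM in the knockout and 25.7 ± 0.899 CPM in the control libraries (log2 fold change -0.42). ZNF777 did not pass, at 37 ± 1.71 CPM in the knockout and 36.6 ± 1.72 CPM in the control libraries. ZNF786 passed narrowly (log2 fold change -0.21, edgeR adjusted p = 0.0464) and lost its call in 12 of 16 alternative settings, with adjusted p from 0.0114 to 0.245. ZNF282, which binds the long terminal repeat of a human T cell leukaemia virus, and ZNF212 were lower in counts, with log2 fold changes of -0.31 and -0.29, but higher once gene length was taken in, at 0.26 and 0.11 (the second not passing, edgeR adjusted p = 0.176). KRBA1, a gene named for a KRAB A domain that lies between ZNF746 and ZNF467, fell to 7.48 ± 0.453 CPM in the knockout libraries against 14.1 ± 0.558 CPM in the control libraries, and ATP6V0E2, the next gene of the tables after ZNF862, had 82.1 ± 2.87 and 83.4 ± 9.06 CPM in knockout and control libraries and did not pass.

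Of the remaining genes, ZNF800 fell most. ZNF800, which restrains the formation of hormone-secreting cells in human intestinal organoids, had 37.8, 39.7 and 38.9 CPM in the knockout libraries and 107, 95.3 and 103 CPM in the control libraries (log2 fold change -1.39 ± 0.0578 SE, edgeR adjusted p = 2.67e-21). ZNF277, whose mouse ortholog binds the Polycomb protein Bmi1, had 13.4, 13.1 and 14.3 CPM in the knockout libraries and 25.5, 27.6 and 27.2 CPM in the control libraries (log2 fold change -0.98 ± 0.0818 SE, edgeR adjusted p = 5.33e-13). Of the annotated exon bases of ZNF277, 8.2% are shared with RN7SKP187, a gene named after RN7SK. Of its 50-base stretches, 6.8% also occur in RN7SKP187. Whether reads from RN7SK or RN7SKP187 were counted for ZNF277 was not tested. With the recovered lengths as an offset the log2 fold change of ZNF277 was -0.61. The genes on either side went different ways: DOCK4 fell to 22.3 ± 0.926 CPM in the knockout libraries against 169 ± 14 CPM in the control libraries, and IFRD1 averaged 90.9 ± 3.93 CPM in the knockout and 77.7 ± 1.39 CPM in the control libraries.

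The 4 genes between ZNF789 and ZNF3 (99472890 to 100082577) changed little: ZNF394, ZNF789 and ZNF3 fell and ZNF655 did not pass. ZNF394 averaged 13.2 ± 1.31 CPM in the knockout and 18.6 ± 0.589 CPM in the control libraries (log2 fold change -0.49). ZNF655, whose protein was found as a partner of the signalling protein VAV1, averaged 40 ± 1.84 CPM in the knockout and 40.4 ± 1.41 CPM in the control libraries. ZNF3 had a log2 fold change of -0.2 (edgeR adjusted p = 0.0159) and its call was lost or its direction turned in 8 of 16 alternative settings. ZNF789 fell in counts (log2 fold change -0.35) and was higher with the recovered lengths as an offset (0.53). On the short arm, ZNF853 rose from a low level, at 25, 29 and 16 counts in the knockout and 9, 16 and 12 counts in the control libraries (log2 fold change 1.05 ± 0.336 SE, edgeR adjusted p = 0.00483). ZNF316 fell in counts (log2 fold change -0.34) and was higher with lengths as an offset (0.15), and ZNF12, at 34.3 ± 3.34 CPM in the knockout and 37.8 ± 3.72 CPM in the control libraries, did not pass, though it did in 4 of 16 alternative settings.

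These turns arise in fits that use the gene lengths behind the authors' FPKM (fragments per gene length and library depth), which could be recovered from count and FPKM and differed between the groups. Among the 28 tested genes, 17 had lengths that agreed within 5%, and of these 3 rose, 11 fell and 3 did not pass. Over all genes tested, 42.0% were higher and 43.0% lower (85.0% in all). The median log2 fold change of the 17 genes was -0.44. ZNF716, ZNF736, ZNF800, ZNF425, ZNF853 and ZNF862 were among the 17, and ZNF727 had no length in the knockout group because it had no counts there. The lengths of ZNF316, ZNF789, ZNF277, ZNF282, ZNF212 and ZNF467 differed by more than 20%. For ZNF282 the length was 3710 bases in the knockout and 5749 bases in the control group, and for ZNF789 it was 3932 and 7503 bases in the same order. With the lengths as an offset, 7 rose and 15 fell of 27 genes tested, against 42.1% higher and 43.1% lower (85.2% in all) over the genes in that fit, and the median was -0.24. For the 8 genes tested around the centromere it was -0.83, with 7 that fell.

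**Figure D3:**
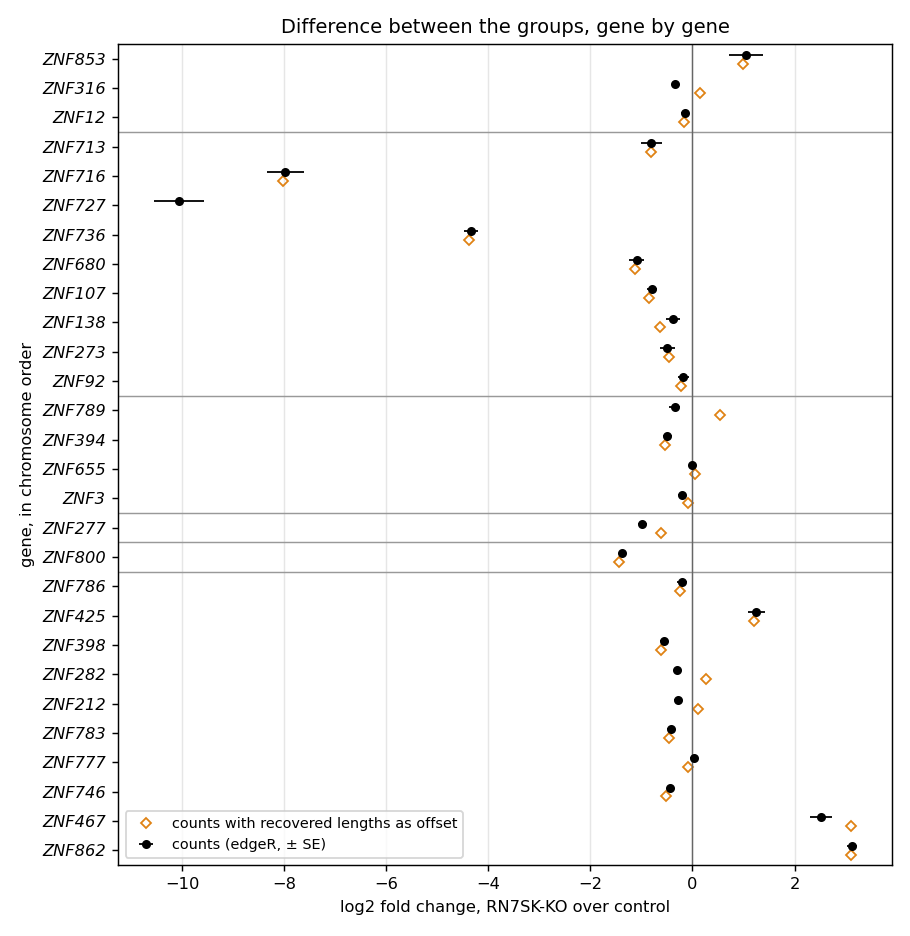
Log2 fold change, knockout over control, of the 28 tested genes in chromosome order. Black circles are the fit on counts with bars of ± 1 SE, and open orange diamonds the fit with recovered gene lengths as an offset, which ZNF727 lacks. The diamonds of ZNF316, ZNF789, ZNF282 and ZNF212 lie right of 0 while their circles lie left of it.

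Per gene length, most of the genes were expressed at a low level. In the knockout libraries the highest were ZNF282 at 12.5 ± 0.288 FPKM, ZNF777 at 10.6 ± 0.434 FPKM and ZNF746 at 9.52 ± 0.42 FPKM. In the control libraries the highest were ZNF746 at 12.8 ± 0.104 FPKM, ZNF777 at 10.6 ± 0.486 FPKM and ZNF282 at 9.86 ± 0.403 FPKM, so the same 3 genes led both groups. ZNF862, at 3.4 ± 0.129 FPKM, ranked 14 of 31 in the knockout libraries, and at 0.374 ± 0.0303 FPKM it ranked 26 of 31 in the control libraries. ZNF736, at 0.153 ± 0.0103 FPKM, ranked 26 in the knockout libraries, and at 3.01 ± 0.245 FPKM it ranked 16 in the control libraries.

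Zinc finger genes of other chromosomes give the setting for these counts. Of 222 tested ZNF genes of chromosome 19, 34 rose and 162 fell, a share of 73% against 71.4% on chromosome 7, and their median log2 fold change was -1.02. These shares were less alike with the recovered lengths as an offset. In that fit 154 of 206 fell and 31 rose on chromosome 19, with a median of -0.94. On chromosome 7, 15 of 27 fell and 7 rose, with a median of -0.24, against 43.1% lower and 42.1% higher over all genes in that fit. A drop of at least 2-fold was found in 112 of the 222, against 5 of 28 on chromosome 7. Of 200 tested ZNF genes of the remaining chromosomes, 84 rose and 85 fell, with a median of 0. Over all genes tested, 42.0% rose and 43.0% fell in the fit on counts. The 582 other tested genes of chromosome 7 had 261 that rose and 218 that fell, with a median of 0.09. Genes with at most 3 counts over the knockout libraries and at least 100 over the control libraries, limits set after the values were seen, were ZNF716 and ZNF727 on the list (2 of 28, 7.14%), 26 of 222 (11.7%) on chromosome 19, 0 of 200 on the remaining chromosomes, and 0.743% of all genes tested. The reverse pattern was found in 0 of the 28 genes and in 0.193% of all genes tested. The differences between these sets were not tested, as genes are not replicates of a condition.

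**Figure D4:**
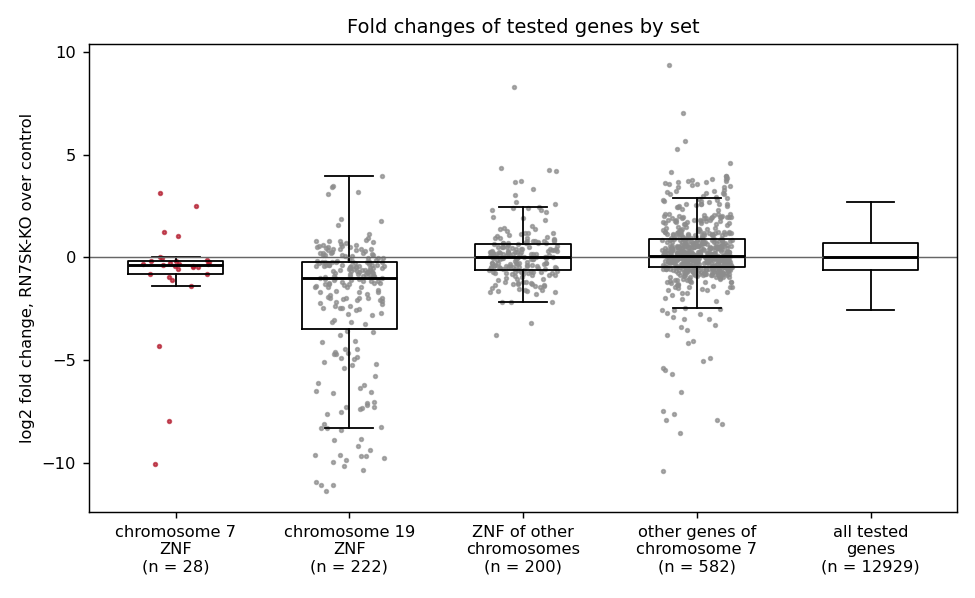
Log2 fold change, knockout over control, of tested genes in 5 sets (boxes: quartiles with the median as a thick line, whiskers to the last value within 1.5 times the box height; dots: single genes, not drawn for all genes). The medians are -0.36 for the 28 chromosome 7 zinc finger genes, -1.02 for ZNF genes of chromosome 19, 0 for ZNF genes of other chromosomes, 0.09 for other genes of chromosome 7 and -0.01 for all genes.

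Genes of the KRAB silencing machinery moved in both directions. Of 27 symbols on the list of corepressors and silencing factors, 24 were in the tables and 23 were tested. Of the 23, 7 rose (30.4%), 12 fell (52.2%) and 4 did not pass, against 42.0% higher and 43.0% lower over all genes tested. The median log2 fold change of the 23 genes was -0.11. TRIM28, the corepressor itself, averaged 502 ± 11.4 CPM in the knockout and 452 ± 17.4 CPM in the control libraries (log2 fold change 0.15, edgeR adjusted p = 0.00114). SETDB1, the methyltransferase it brings in, averaged 64.6 ± 1.39 CPM in the knockout and 41.3 ± 1.72 CPM in the control libraries. DNMT1, which maintains DNA methylation, fell to 159 ± 2.57 CPM in the knockout libraries against 343 ± 19.7 CPM in the control libraries, and its partner UHRF1 fell to 48.9 ± 3.34 CPM against 139 ± 11.7 CPM. HDAC1, a histone deacetylase, averaged 80.6 ± 0.911 CPM in the knockout and 147 ± 1.32 CPM in the control libraries, and MORC3, a chromatin ATPase, 18.1 ± 0.878 and 41.1 ± 3.12 CPM in the same order. Of 17 zinc finger genes of chromosome 7 with other name stems, 14 were tested, of which 4 rose (28.6%), 6 fell (42.9%) and 4 did not pass. ZC3HAV1, which binds viral RNA, fell to 51.8 ± 1.8 CPM in the knockout libraries against 119 ± 4.28 CPM in the control libraries, and REPIN1 rose to 281 ± 3.84 CPM in the knockout libraries against 152 ± 9.18 CPM in the control libraries.

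Across the 28 promoters of listed genes in the RefSeq table, short motifs were searched on both strands of the 300-base windows. The SP1 box GGGCGG was in 16 of 28 (57.1%) and in 63.9% of the promoters of genes in the tables. The box CCAAT was in 14 of 28 (against 35.9%), and in each of ZNF716, ZNF727 and ZNF736 it was found at 2 places and in ZNF862 at 4. ZNF92, ZNF107, ZNF138, ZNF680, ZNF713 and ZNF789, which changed by less, also held it at 2 places each. The ETS site CCGGAAG was in 10 (35.7%, against 15.8%), the letters TGACG in 11 (39.3%, against 31.1%) and the TATA box TATAAA in 0 (against 7.53%). Matches of different motifs could overlap, and a match describes the letters only.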

How the data were processed

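Per the labels' protocols, TRIzol was used for total RNA and a commercial mRNA kit for libraries. Per the submitters' processing notes, the tools were HISAT2 2.2.1.0, Trimmomatic 0.36 and FastQC 0.11.5, with GRCh38. Not given in the sources used here are counter, annotation and strand setting. The authors deposited whole-number counts and FPKM per gene symbol for each library.

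Counts were fitted over all genes in R 4.3.3 with edgeR 4.0.16 (filterByExpr, TMM scaling, robust quasi-likelihood, two-sided, Benjamini-Hochberg over 12929 genes, threshold 0.05). SE is the log2 fold change divided by the root of F. CPM use the same scaling. The method was tested on simulated counts in which few genes changed, evenly up and down, with the same spread in both groups. In these data 85.0% of tested genes passed and the spread differed between the groups. The simulation therefore does not show how well the scaling holds here. Gene lengths were recovered from deposited counts and FPKM, as whole bases within 0.02. They agreed within 1% between the groups for 32.34% of 14582 genes. Symbols were matched to a RefSeq table of GRCh38 (16495 by symbol, 226 by synonym), which gave coordinates; promoters are RefSeq's (GRCh38.p14), aligned with Biopython 1.88. Exon overlap is from GENCODE 29. Locus groups are split at gaps over 10 Mb. The list members and gene lists were chosen with earlier results of these data known. Values in each library are given for genes past the threshold with a log2 fold change of at least 1 and a mean of at least 1 CPM, for those with the highest and lowest mean level and for genes of the locus groups compared. ZNF277, PSPH and CCT6A were chosen after their values were seen. Non-members are TRIM28, SETDB1, up to 4 genes of each list by smallest p and nearest neighbours. Alternatives were other scalings and filters, DESeq2 1.42.0, limma 3.58.1 on log2(FPKM + 0.1) and log2(FPKM + 1), lengths as an offset, a replicate block and leaving out each library. Replicates differed beyond counting noise (chi-square divided by its degrees of freedom was 1.74 to 8.3).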

Additional observations from a re-analysis of the deposited data

How the results depend on the processing

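Under the 16 alternative settings, 17 of the 24 genes that passed kept their direction and their call in every fit that could be made, among them ZNF716, ZNF736, ZNF800, ZNF862, ZNF467, ZNF425 and ZNF398. ZNF727 had no length in the knockout group and could not be fitted with the offset. On log2(FPKM + 0.1), log2(FPKM + 1) and with the length offset, in that order, the number that rose was 8, 8 and 7, against 4 (of all genes 45.6%, 45.5% and 42.1% rose, against 42.0%), the number that fell was 14, 14 and 15, against 20 (of all genes 39.3%, 39.4% and 43.1% fell, against 43.0%), and the median log2 fold change was -0.23, -0.12 and -0.24. In the same order the log2 fold change turned to 0.34, 0.32 and 0.26 for ZNF282, 0.24, 0.21 and 0.15 for ZNF316, 0.19, 0.17 and 0.11 for ZNF212, and 0.56, 0.41 and 0.53 for ZNF789. For ZNF3 it was 0 (0.0 on both FPKM scales). The lengths enter these 3 fits by construction. Upper quartile scaling gave a median of -0.28, and it shifted the median of all genes to 0.08. Leaving out each library gave 4 genes that rose, 17 to 21 that fell and a median of -0.41 to -0.35, and over all genes 5266 to 5534 that rose and 5420 to 5598 that fell. The replicate numbers did not pair the libraries (correlation of same-numbered deviations 0.018, -0.025 and -0.008). With a replicate block 4 rose and 19 fell, with a median of -0.37, and over all genes 5397 rose and 5513 fell. The 0 or 1 counts of ZNF479, ZNF735 and ZNF117 allow no comparison, and whether depth or the assignment of shared reads played a part was not tested.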
